A study of Mus musculus with 9 samples.

Results

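The 10 genes described here are Rnd2, Sall3, Stc1, Adamts20, Kcnk1, Pde9a, Crabp1, Olfm1, Igfbpl1 and Trim9. They are best known from the nervous system, limbs, kidney or skin, and they were picked because their signals were far higher in mouse thymus tumors than in normal thymus on these same arrays. Their height over normal thymus is therefore a description and was not tested, whereas the comparison between the tumor groups was tested across all genes. All 10 were on the array, among 18193 genes with a probe set of 1 symbol, and all 10 were among the 11671 genes that passed the filter on dim probe sets. They were read by 19 probe sets and lie on 10 different chromosomes.

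The study set thymus tumor tissue resistant to XIST and thymus tumor tissue against normal mouse thymus, with 3 arrays in each of the 3 groups. XIST is a noncoding RNA that shuts down an X chromosome in female mammals, and the labels do not say how it was applied or how resistance was judged. The labels give no strain, genotype, age, sex or treatment of the mice, and they do not say what produced the tumors or whether each array is another animal. The p-values below therefore reflect the spread among these 9 arrays alone, part or all of which may be technical.

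The genes belong to different families, and some of them act in the development of tissues. Sall3 encodes a zinc finger transcription factor of the spalt family, which acts in limb and nerve development. Rnd2 encodes a small GTPase that guides migrating neurons, and Trim9 encodes a brain-enriched ubiquitin ligase that binds a netrin receptor. Stc1 (stanniocalcin), Adamts20 (a metalloproteinase needed for pigment cell precursors in mice), Olfm1 (olfactomedin) and Igfbpl1 (a relative of the IGF binding proteins) encode secreted proteins. Crabp1 encodes a cytosolic carrier of retinoic acid, Pde9a a phosphodiesterase that breaks down cGMP, and Kcnk1 a potassium leak channel.

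The stretches just upstream of the gene starts are shown because they are a feature that the choice of the genes did not use. RefSeq promoter windows (build GRCm38.p6) were matched for 5 of the 10 genes, with 2 windows for Olfm1, and the 250 bases before the start are printed 5′ to 3′ on the strand of the gene. Capitals mark CG pairs. The windows lie at chr15:94404351-94404600 (minus strand) for Adamts20, at chr2:28192843-28193092 and chr2:28205439-28205688 (plus strand) for Olfm1, at chr9:54764498-54764747 (plus strand) for Crabp1, at chr12:70347615-70347864 (minus strand) for Trim9 and at chr8:125994852-125995101 (plus strand) for Kcnk1.
Adamts20: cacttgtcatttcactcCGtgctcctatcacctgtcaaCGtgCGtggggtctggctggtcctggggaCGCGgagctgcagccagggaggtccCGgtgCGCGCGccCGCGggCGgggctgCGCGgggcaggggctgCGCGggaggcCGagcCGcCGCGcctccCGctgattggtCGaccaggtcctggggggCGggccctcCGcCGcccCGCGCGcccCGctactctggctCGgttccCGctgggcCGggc
Olfm1, first start: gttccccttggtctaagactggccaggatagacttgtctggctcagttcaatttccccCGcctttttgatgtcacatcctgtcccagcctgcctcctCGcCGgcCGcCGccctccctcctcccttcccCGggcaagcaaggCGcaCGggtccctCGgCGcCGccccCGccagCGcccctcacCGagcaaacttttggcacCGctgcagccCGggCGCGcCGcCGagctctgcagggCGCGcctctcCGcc
Olfm1, second start: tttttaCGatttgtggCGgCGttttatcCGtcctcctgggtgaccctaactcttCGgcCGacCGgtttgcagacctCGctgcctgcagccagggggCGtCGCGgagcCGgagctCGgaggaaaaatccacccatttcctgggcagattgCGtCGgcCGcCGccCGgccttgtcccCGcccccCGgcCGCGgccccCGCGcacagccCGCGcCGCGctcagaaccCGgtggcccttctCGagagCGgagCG
Crabp1: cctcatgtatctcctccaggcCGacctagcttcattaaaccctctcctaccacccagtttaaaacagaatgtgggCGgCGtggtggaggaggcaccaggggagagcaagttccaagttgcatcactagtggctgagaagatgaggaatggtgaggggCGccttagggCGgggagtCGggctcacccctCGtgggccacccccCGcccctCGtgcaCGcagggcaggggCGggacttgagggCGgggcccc
Trim9: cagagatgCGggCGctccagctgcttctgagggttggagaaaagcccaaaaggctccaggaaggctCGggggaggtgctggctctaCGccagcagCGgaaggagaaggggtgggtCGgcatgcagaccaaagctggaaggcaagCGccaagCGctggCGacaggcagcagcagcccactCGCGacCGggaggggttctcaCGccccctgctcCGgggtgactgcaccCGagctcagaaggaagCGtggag
Kcnk1: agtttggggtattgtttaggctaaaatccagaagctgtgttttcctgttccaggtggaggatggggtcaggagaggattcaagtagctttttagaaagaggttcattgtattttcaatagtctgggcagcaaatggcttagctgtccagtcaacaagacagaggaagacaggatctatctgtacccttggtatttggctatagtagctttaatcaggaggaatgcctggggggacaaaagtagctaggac

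The windows did not share one base composition. Adamts20 and the second Olfm1 start each held 32 CG pairs, the first Olfm1 start 23, Trim9 16 and Crabp1 12, whereas the Kcnk1 window held 0. Over all 32851 RefSeq windows of the same length the median was 6 CG pairs, with quartiles of 2 and 16. The GC box GGGCGG, searched on both strands, was found upstream of Adamts20, Crabp1 and both Olfm1 starts and in 32.7% of all windows. CCAAT was found upstream of Adamts20 (33.9% of all windows) and the E-box CAGCTG upstream of Trim9 (13% of all windows). The TATA box TATAAA was in none of the 6 windows and in 12.4% of all windows. The same held for the RUNX letters TGTGGT (14.1% of all windows), the RBPJ letters TGGGAA (21.6%) and the STAT letters TTCNNNGAA (7.02%), all searched on both strands. These matches describe letters and show no binding.

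Signals are MAS5 intensities in arbitrary units, scaled so that the trimmed mean of every array is 100.03, and the number of arrays limits their precision. The arrays fell into a set without poly-A spike-in signal (resistant tumor 1 and 2, tumor 1, normal thymus 1) and a set of 5 arrays with it. The array medians were 23.6 to 25.8 in the set without and 13.9 to 17.8 in the set with spike-in signal. On tumor 1 the control probe sets were ordered differently from the other arrays, while the log2 signals of any pair of arrays correlated at 0.876 to 0.977. The ratio of the 3′ to the 5′ Actb probe sets, a sign of RNA quality, was 1.63 to 3.16, and it was highest on tumor 2, then on resistant tumor 3.

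The transcription factor gene Sall3 had its largest signals in the resistant tumors. Its probe set 1452386_at read 127, 196 and 240.0 in the resistant tumors, 51.5, 52.9 and 36.7 in the tumors, and 0.632, 0.555 and 0.567 in normal thymus. No array of a group overlapped with another group, and the normal thymus values lay far under the array medians. A group whose 3 arrays all lay under their own medians is taken as not measured, and its difference is then given as a bound, with the array median in place of the dim value. On that basis Sall3 was at least 9.16-fold higher in resistant tumors and at least 2.34-fold higher in tumors than in normal thymus. The second Sall3 probe set, 1441186_at, read 92.4, 83.1 and 119.8 in resistant tumors, 52.3, 17.9 and 12.5 in tumors and 1.62, 5.86 and 3.58 in normal thymus, and so ranked the groups the same way.

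Of the signalling genes, Rnd2 was also measured in normal thymus. Its signal was 904, 2014 and 778 in resistant tumors, 2682, 3193 and 3341 in tumors and 56.6, 54.2 and 63.1 in normal thymus. The log2 differences were 4.28 ± 0.30 for resistant tumors minus normal thymus and 5.73 ± 0.30 for tumors minus normal thymus (SE of the fit over all genes, n = 3 arrays a group, as for every ± below). Among genes measured in both groups, the rise of Rnd2 ranked 11 of 10610 in resistant tumors and 2 of 10572 in tumors. All 3 resistant tumors lay between the other groups, with resistant tumor 2 the nearest to the tumors.

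Pde9a and Trim9 were under the array medians in all 3 normal thymus arrays. Pde9a read 43.9, 60.7 and 71.0 in resistant tumors, 149.9, 159 and 159 in tumors, and 1.70, 3.66 and 5.61 in normal thymus. It was at least 2.89-fold higher in resistant tumors and at least 7.86-fold higher in tumors than in normal thymus. Trim9 (1454886_x_at) read 30.5, 57.3 and 84.1 in resistant tumors, 33.0, 19.5 and 33.2 in tumors, and 0.183, 2.38 and 0.902 in normal thymus. Its bounds were at least 2.66-fold for resistant tumors and at least 1.40-fold for tumors. The tumor arrays of Pde9a lay close together, whereas those of the resistant tumors spread for both genes.

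Among the secreted proteins, Stc1 and Adamts20 had a normal thymus array at or over the median. Stc1 (1450448_at) read 327, 504 and 369.5 in resistant tumors, 892, 922 and 678 in tumors and 33.9, 17.4 and 10.5 in normal thymus, with log2 differences of 4.42 ± 0.36 for resistant tumors minus normal thymus and 5.49 ± 0.36 for tumors minus normal thymus. Adamts20 read 554, 758 and 941 in resistant tumors, 487, 649.7 and 446 in tumors and 11.7, 18.8 and 17.0 in normal thymus, with differences of 5.57 ± 0.24 and 5.07 ± 0.24 for the same comparisons. Every resistant tumor was under every tumor for Stc1, while the tumor groups overlapped for Adamts20. The other Stc1 probe set, 1421984_at, was under the median on all 9 arrays, at 0.0605 to 12.4, and its groups overlapped, so that the account of Stc1 rests on 1 probe set.

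Igfbpl1 and Olfm1 were under the array medians in normal thymus. Igfbpl1 (1450960_at) read 399, 323 and 548 in resistant tumors, 202, 233 and 361 in tumors and 7.42, 8.28 and 9.50 in normal thymus, and was at least 20.8-fold higher in resistant tumors and at least 13.0-fold higher in tumors. Olfm1 (1425784_a_at) read 64.4, 153 and 234 in resistant tumors, 101, 105 and 135 in tumors and 0.761, 4.60 and 14.9 in normal thymus, and was at least 6.66-fold higher in resistant tumors and at least 5.68-fold higher in tumors. The resistant tumors spread widely around the tumors for Olfm1, while for Igfbpl1 only tumor 3 reached into the range of the resistant tumors.

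The carrier gene Crabp1 varied more within the tumor groups than between them. It read 72.7, 262 and 117 in resistant tumors, 90.8, 229.7 and 80.2 in tumors and 4.12, 8.67 and 1.50 in normal thymus, and was at least 6.57-fold higher in resistant tumors and at least 5.98-fold higher in tumors. The channel gene Kcnk1 (1448690_at) read 67.5, 80.6 and 87.5 in resistant tumors, 233, 214 and 135 in tumors and 0.963, 2.57 and 3.77 in normal thymus, and was at least 3.93-fold higher in resistant tumors and at least 9.53-fold higher in tumors. All 3 tumors lay over all 3 resistant tumors for Kcnk1. In bulk tissue, fewer cells of a type and less RNA per cell cannot be told apart, which holds for every level given here.

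**Figure D1:**
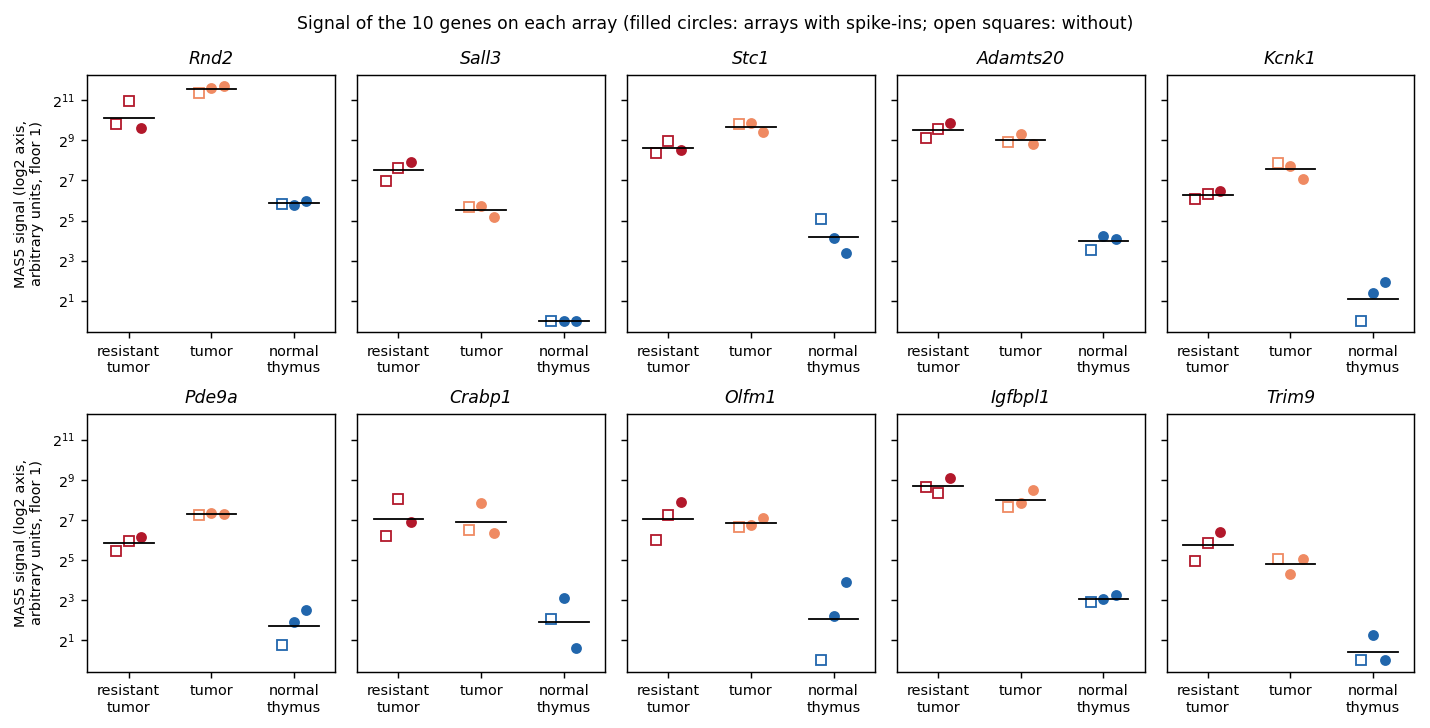
MAS5 signal (log2 axis, arbitrary units, floor of 1) of the 10 genes on each array, in resistant tumor, tumor and normal thymus from left to right, with filled circles for arrays with spike-in signal and open squares for arrays without it. In each panel all 6 tumor arrays lie over the 3 normal thymus arrays, while the resistant tumor and tumor arrays are apart in 5 panels (Sall3, Rnd2, Stc1, Kcnk1 and Pde9a).

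Of the 10 genes, 3 (Rnd2, Stc1 and Adamts20) reached the array median on at least 1 normal thymus array. Their log2 differences from normal thymus were 4.28 to 5.57 in resistant tumors and 5.07 to 5.73 in tumors. The other 7 were under the median on all 3 normal thymus arrays and have bounds alone, of at least 2.66-fold to 20.8-fold in resistant tumors and at least 1.40-fold to 13.0-fold in tumors. With these 7 at their bound, the median log2 difference of the 10 genes was 2.96 in resistant tumors and 3.11 in tumors, where the medians over all 11671 genes were 0.06 and 0.05. As the choice used these comparisons, nothing is read from the 43.3% of all genes that changed in resistant tumors or the 42.4% in tumors (limma, adjusted p under 0.05). Of the 19 probe sets, 18 had all 6 tumor arrays over all 3 normal thymus arrays, and the exception was the dim Stc1 probe set. This follows from the choice of the genes and is a description. With 1 tumor group taken at a time, all its 3 arrays lay over normal thymus in 28.9% of all genes for resistant tumors and 30.1% for tumors. These shares are of genes and of 1 group, so they are no measure for the 18 probe sets. Both comparisons share the normal thymus arrays.

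Whether the resistant tumors differed from the tumors was tested with limma over all 11671 genes, with Benjamini-Hochberg adjustment. Sall3 was the only one of the 10 genes to pass, being 3.92-fold higher in resistant tumors (log2 difference 1.97 ± 0.33, adjusted p = 0.0436), where 0.36% of all genes passed (0.129% higher and 0.231% lower). All 3 normal thymus values of this Sall3 probe set lay under the floor of 1. After flooring they had no spread, which lowers the residual spread that the 3 groups share in this fit. Rnd2 was 2.72-fold lower in resistant tumors (log2 difference -1.44 ± 0.30, adjusted p = 0.116) and did not pass. The Sall3 call was lost in 13 of 21 other settings, with an adjusted p of up to 0.618, among them leaving out any 1 array except normal thymus 1 (adjusted p of 0.0665 to 0.225). Leaving out resistant tumor 2 made the Rnd2 difference -1.87 (adjusted p = 0.00118), and a term for the spike-in set gave -1.50 (adjusted p = 0.0409).

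The other genes gave differences with wide intervals. The 95% interval of the log2 difference, resistant tumor minus tumor, was -2.34 to -0.54 for Pde9a (adjusted p = 0.276), -2.28 to -0.27 for Kcnk1 (adjusted p = 0.494) and -1.88 to -0.25 for Stc1 (adjusted p = 0.473). It was 0.11 to 1.26 for Igfbpl1 (adjusted p = 0.544), -0.05 to 1.04 for Adamts20 (adjusted p = 0.739) and -0.30 to 2.15 for Trim9 (adjusted p = 0.794). For Crabp1 it was -1.40 to 1.67 and for Olfm1 -1.63 to 2.09, so that both intervals reach past 1 on either side of 0. These intervals are not adjusted for the number of genes. With 50 added to every signal in place of the floor of 1, Kcnk1 (adjusted p = 0.0364) and Pde9a (adjusted p = 0.00567) passed as well. There the differences were smaller, at -0.91 for Kcnk1 and -0.93 for Pde9a, and the SE fell from 0.45 to 0.15 and from 0.40 to 0.10. The offset flattens the dim normal thymus arrays, whose spread enters the shared error.

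In direction, 6 of the 10 genes were higher and 4 lower in resistant tumors. On the probe set that stood for each gene, the tumor groups did not overlap for 5 genes, with Sall3 higher and Rnd2, Stc1, Kcnk1 and Pde9a lower in resistant tumors, against 10.4% of all genes (4.41% higher and 6.01% lower). On other probe sets they were also apart, and higher in resistant tumors, for Igfbpl1 (1423377_at, 339, 369 and 407 against 177, 136 and 244 in tumors). The same held for Trim9 on 1434249_s_at (40.8, 61.6 and 85.7 against 28.1, 19.5 and 25.1), whereas its 1434595_at overlapped. It also held for Trim9 on 1443989_at, which did not pass the filter, and for Sall3 on 1441186_at. On the second Kcnk1 probe set, 1455896_a_at, the groups were apart and resistant tumors lower (18.1, 24.5 and 12.3 against 56.9, 33.8 and 28.6). The other probe sets of Stc1 and Olfm1 overlapped. An unadjusted p under 0.05 was found for 6 of the 10, against 7.23% of all genes. The 10 genes were picked for their height on the same tumor arrays, which can favour one side of this comparison, so the counts are given as a description.

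**Figure D2:**
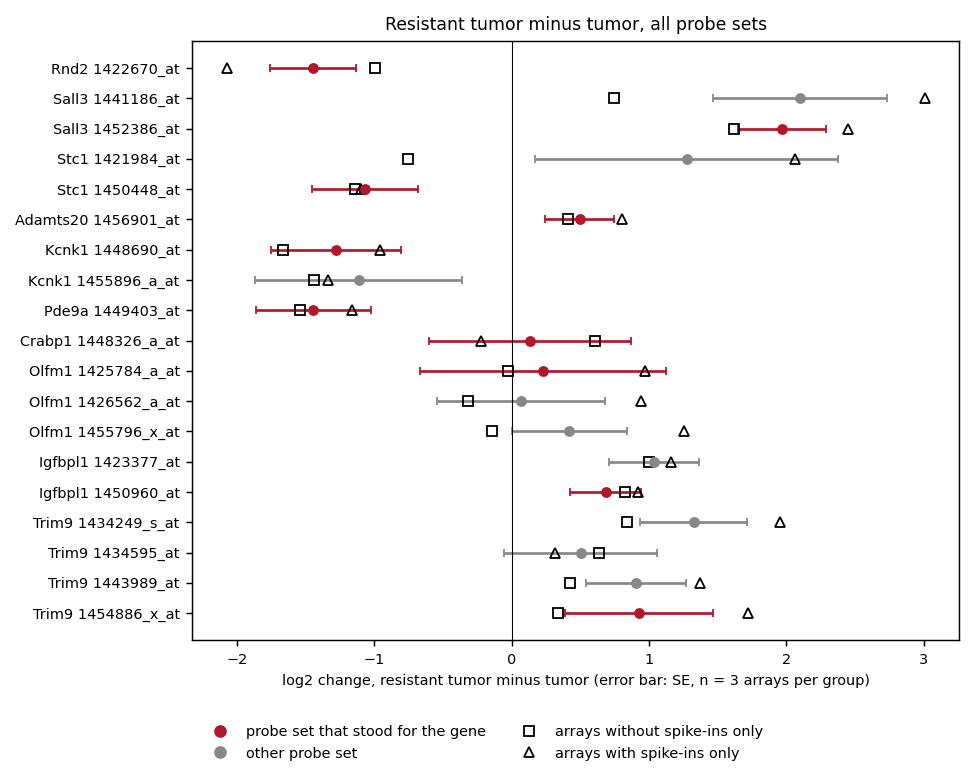
Log2 difference of resistant tumor minus tumor (points with SE, n = 3 arrays a group) for all 19 probe sets of the 10 genes, with the differences within the arrays without and with spike-in signal as open symbols. Sall3 lies at 1.97 and 2.10 on its 2 probe sets, and Rnd2, Kcnk1 and Pde9a lie under 0 within both sets of arrays.

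The probe sets of a gene mostly gave 1 direction. In 5 of the 6 genes with more than 1 probe set all probe sets had the same sign in resistant tumor minus tumor, and Stc1, with its dim second probe set, was the exception. Both Igfbpl1 probe sets (log2 differences of 1.04 and 0.68) and all 4 Trim9 probe sets (0.50 to 1.33) were higher in resistant tumors, and both Kcnk1 probe sets were lower (-1.28 and -1.11). In the fit of all 34945 probe sets with 1 symbol, without a filter, no probe set of the 10 genes passed, and the Sall3 probe sets had adjusted p-values of 0.146 and 0.638. Within the spike-in sets, 8 of the 10 genes kept their sign in both sets. The Sall3 difference was 1.62 in the arrays without and 2.45 in the arrays with spike-in signal, and that of Rnd2 -0.99 and -2.07. Crabp1 (0.60 and -0.22) and Olfm1 (-0.02 and 0.97) did not keep theirs.

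How alike the genes ran over the 9 arrays was measured as the root-mean-square distance between their log2 profiles, each centred on its own mean, with dim signals included. The 10 genes were picked for standing higher in tumors than in normal thymus, so their closeness to each other and to other strongly rising genes follows from the choice and is a description. Adamts20 and Igfbpl1 were the closest pair, at 0.38, followed by Kcnk1 and Pde9a at 0.52, Adamts20 and Trim9 at 0.54 and Rnd2 and Stc1 at 0.54. Sall3 and Pde9a were the farthest apart, at 1.66. Among 11661 genes outside the set, Uaca was nearest to Stc1 (0.32) and to Rnd2 (0.46), and Bst1 was nearest to Adamts20 (0.47) and Igfbpl1 (0.49). Chn1 was nearest to Trim9 (0.50), Slit3 to Pde9a (0.60) and Dnm1 to Olfm1 (0.62). The named genes nearest to Kcnk1, Crabp1 and Sall3 were Fbp1 (0.66), H2-Bl (0.86) and again Fbp1 (1.11). The points of a profile share the array, its scaling and its spike-in set.

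Relatives of the 10 genes went both ways. Of 43 relatives on the array, 16 were under the array medians on all 9 arrays, among them Sall1, Sall4, Crabp2, Olfm2, Olfm3 and Trim67, close kin of Sall3, Crabp1, Olfm1 and Trim9. Of the 26 that were tested, 8 rose and 7 fell in resistant tumors against normal thymus, where 23.1% and 20.2% of all genes did so. In tumors 9 rose and 7 fell against normal thymus, where 23.3% and 19.1% of all genes did so. Leaving out tumor 2, tumor 3, normal thymus 2 or normal thymus 3 left 6 rises in tumors. The median log2 difference of the relatives was -0.10 in resistant tumors and -0.09 in tumors. No relative passed between resistant tumors and tumors. The relatives and the pathway lists below were chosen with earlier results of these data known.

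Beside Rnd2, its kin Rnd3 fell and Rnd1 rose. Rnd3 read 10.8, 1.28 and 19.0 in resistant tumors, 5.02, 7.33 and 15.8 in tumors and 68.0, 87.0 and 82.7 in normal thymus (log2 difference -3.62 ± 0.88, limma adjusted p = 0.00841, in resistant tumors and -3.24 ± 0.88, adjusted p = 0.0143, in tumors). Rnd1 was at least 1.56-fold higher in resistant tumors (adjusted p = 0.0104) and at least 1.15-fold higher in tumors (adjusted p = 0.0319). Its call in tumors was lost in 9 of 20 other settings, among them leaving out any 1 tumor array, normal thymus 2 or normal thymus 3, with an adjusted p of up to 0.21.

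The kin of the secreted proteins were split as well. Stc2, the other stanniocalcin, read 107, 127 and 131 in resistant tumors, 177, 167 and 205 in tumors and 53.5, 24.5 and 28.2 in normal thymus, and it rose like Stc1 (log2 difference 1.86 ± 0.27, adjusted p = 0.000458, and 2.45 ± 0.27, adjusted p = 8.36e-05). Among the IGF binding proteins, which hold the growth factors IGF1 and IGF2 outside the cell, Igfbp3 was at least 7.63-fold higher in resistant tumors (adjusted p = 0.00141) and at least 9.56-fold higher in tumors (adjusted p = 0.000785). Igfbp5 fell by 2.82 on the log2 scale in resistant tumors and fell by 2.64 in tumors, and Igfbp4 fell by 1.21 in tumors (adjusted p = 0.0175). Adamts9, another secreted metalloproteinase, fell by 1.02 in resistant tumors and fell by 0.97 in tumors. The calls of Igfbp4 and Adamts9 in tumors were lost without normal thymus 3 (adjusted p = 0.0656 and 0.0595).

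Of the channel and enzyme families, Kcnk2 was at least 3.88-fold lower in resistant tumors (adjusted p = 0.000738) and at least 4.60-fold lower in tumors (adjusted p = 0.000168), the opposite of Kcnk1, and Kcnk6 fell by 0.87 on the log2 scale in resistant tumors (adjusted p = 0.0178). Among the phosphodiesterases, Pde8a rose by 2.28 and 1.42 and Pde7a by 1.35 and 1.35 on the log2 scale in resistant tumors and tumors. Pde4a was at least 1.58-fold higher in resistant tumors (adjusted p = 0.00769) and at least 1.25-fold higher in tumors (adjusted p = 0.0269). Pde3b changed by -2.29 and -2.26 and Pde4d by -2.27 and -2.07 in the same order, and Pde2a rose by 1.09 in tumors (adjusted p = 0.0237). Of the Trim9 kin, Trim46 rose by 1.49 in resistant tumors and 1.54 in tumors, and Mid1 by 1.02 and 0.66. Leaving out a single array of either group compared could end the calls of Kcnk6 in resistant tumors (adjusted p up to 0.0759) and of Pde4a (up to 0.0951) and Pde2a (up to 0.0936) in tumors.

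**Figure D3:**
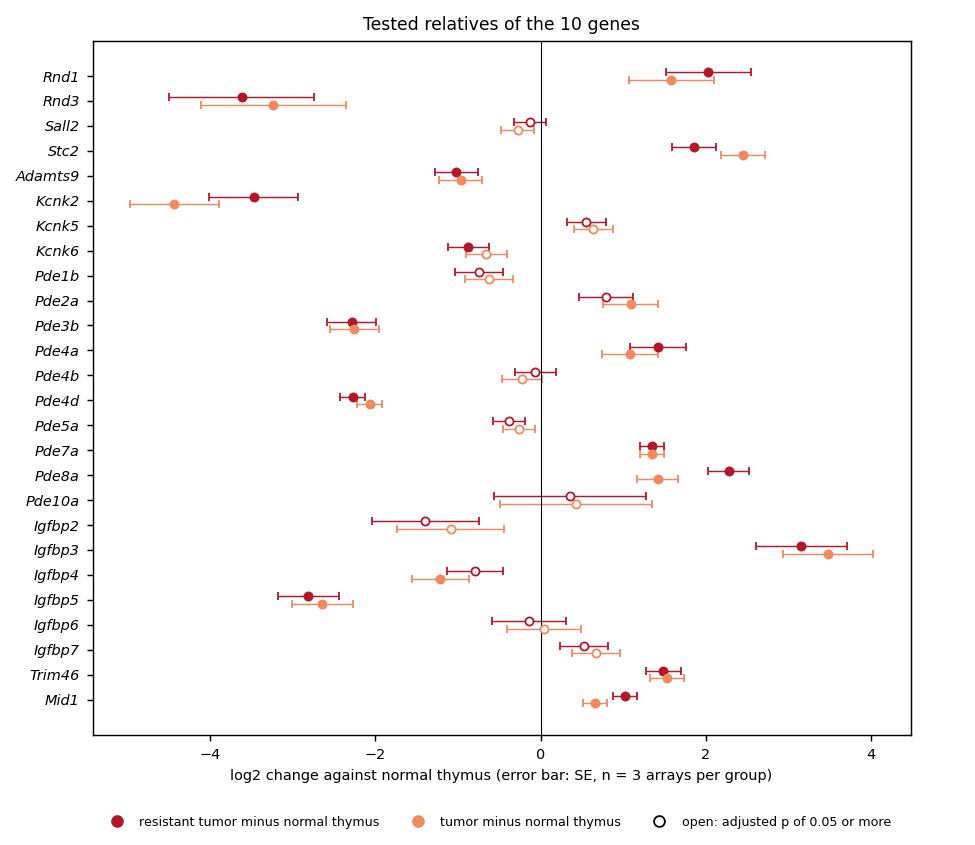
Log2 difference from normal thymus (points with SE, n = 3 arrays a group) of the 26 tested relatives, in resistant tumors (red) and tumors (orange), with open points for an adjusted p of 0.05 or more. For relatives dim in a whole group the point is the fitted difference, not the bound given in the text. Igfbp3, Stc2 and Rnd1 lie right of 0 and Kcnk2, Rnd3 and Igfbp5 left of it in both tumor groups.

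In the gene lists around the 10 genes the shares called lay on both sides of those over all genes, so nothing particular to these pathways is read from their counts. Against normal thymus, 43.3% of all genes passed in resistant tumors and 42.4% in tumors. For the lists the shares were 53.85% and 61.54% in retinoic acid handling, 41.7% and 58.3% in the IGF axis, 41.2% and 52.9% around the Rnd proteins, 57.1% and 57.1% in netrin guidance and 25% and 37.5% in cGMP signalling. In the handling of retinoic acid, the ligand of Crabp1, 3 genes rose and 4 fell of 13 tested in resistant tumors, and 3 rose and 5 fell in tumors. Rdh10, which makes retinal from retinol, read 897, 675 and 646 in resistant tumors, 910.1, 984 and 873 in tumors and 100.3, 109.9 and 117 in normal thymus (log2 difference 2.75 ± 0.14, adjusted p = 1.35e-06, and 3.08 ± 0.14, adjusted p = 5.77e-07). Dhrs3, which turns retinal back into retinol, read 84.2, 67.7 and 60.6 in resistant tumors, 63.6, 51.9 and 47.8 in tumors and 533, 491 and 513 in normal thymus (log2 difference -2.87 ± 0.16, adjusted p = 2.35e-06, and -3.24 ± 0.16, adjusted p = 9.33e-07). Cyp26b1, which degrades retinoic acid, fell by 2.70 in resistant tumors and fell by 2.05 in tumors, and Stra8, a gene induced by it in germ cells, rose by 1.81 and 1.88 in the same comparisons. The other calls were Rxra, which rose, and Rara and Ncoa1, which fell, in both tumor groups, and Rbp4, which fell in tumors, with Rbp4 (adjusted p up to 0.154) and Rara in resistant tumors (up to 0.0586) lost on leaving out 1 array. The enzymes Aldh1a1, Aldh1a2 and Aldh1a3, which make retinoic acid, and the receptor Rarb were under the array medians on all 9 arrays.

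In the IGF axis, 3 rose and 2 fell of 12 tested in resistant tumors, and 4 rose and 3 fell in tumors. Igf2, a growth factor of fetal tissue, rose by 2.34 ± 0.30 on the log2 scale in resistant tumors (adjusted p = 0.000237) and by 1.04 ± 0.30 in tumors (adjusted p = 0.0192), the receptor gene Igf1r rose by 1.16 in tumors, and Igf1 fell by 0.81 in resistant tumors and fell by 1.51 in tumors. Irs2, which relays the receptor's signal, rose by 0.70 in resistant tumors and 1.39 in tumors. Of 17 tested genes around the Rnd proteins and their plexin partners, 3 rose and 4 fell in resistant tumors and 4 rose and 5 fell in tumors. Among them Plxna3 rose by 1.44 and 1.31 and Plxnd1 changed by -2.09 and -1.76 in resistant tumors and tumors. Plxna1 rose and Rock1 and Sema4d fell in both groups, while Arhgap35 rose and Nrp1 fell in tumors. The calls of Irs2 in resistant tumors, Igf2 in tumors, and Plxna1, Plxna3 and Sema4d in both were lost on leaving out certain single arrays, with adjusted p up to 0.148, and so were Rnd1 (up to 0.108) and Arhgap35 (0.0518 without tumor 2) in tumors. Around the Rnd proteins, 1 rise was left in resistant tumors without normal thymus 2, and 1 in tumors without tumor 1, tumor 2, normal thymus 2 or normal thymus 3, whereas up to 5 were called without tumor 1 (resistant tumors) or normal thymus 1 (both groups).

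Of 7 tested genes of netrin guidance, in which Trim9 acts, 2 rose and 2 fell in each tumor group. The receptor genes Neo1 (2.06 ± 0.18 in resistant tumors and 2.09 ± 0.18 in tumors) and Unc5b (1.60 ± 0.26 and 1.44 ± 0.26) rose. Vasp fell by 1.20 in resistant tumors and fell by 0.85 in tumors, Ntn1, the ligand, fell by 0.97 in resistant tumors, and Enah fell by 1.16 in tumors. Of 8 tested cGMP genes, the substrate pathway of Pde9a, 2 rose and 0 fell in resistant tumors, and 2 rose and 1 fell in tumors. Npr2, a receptor that makes cGMP, was at least 6.72-fold higher in resistant tumors (adjusted p = 1.01e-05) and at least 5.87-fold higher in tumors (adjusted p = 1.46e-05). The other calls were Nos3, which rose by 0.89 in resistant tumors (adjusted p = 0.0464), Pde2a in tumors, and Gucy1a2, at least 1.73-fold lower in tumors (adjusted p = 0.0217). The Ntn1, Nos3 and Gucy1a2 calls were lost on leaving out certain single arrays (adjusted p up to 0.0643, 0.125 and 0.0746). No gene of these lists passed between resistant tumors and tumors.

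Genes next to 2 of the 10 on the chromosome also rose strongly. The nearest tested protein-coding genes on each side gave 20 neighbours, of which 15 lie directly beside their gene in RefSeq. In resistant tumors 7 rose and 3 fell (23.1% and 20.2% of all genes), and in tumors 7 rose and 2 fell (23.3% and 19.1% of all genes), against normal thymus, which is near the share over all genes. These loci were chosen after their values were seen. Beside Rnd2 on chromosome 11 lie Vat1 and Brca1, the DNA repair gene. Brca1 read 514, 768 and 411 in resistant tumors, 1533, 1665 and 1635 in tumors and 206, 237 and 236 in normal thymus (log2 difference 1.27 ± 0.19, limma adjusted p = 0.000679, in resistant tumors and 2.83 ± 0.19, adjusted p = 5.23e-06, in tumors). Vat1 (1441930_x_at) read 1347, 2080.1 and 896 in resistant tumors, 2673, 1992 and 1787 in tumors and 544, 311 and 302 in normal thymus (1.87 ± 0.32, adjusted p = 0.00123, and 2.51 ± 0.32, adjusted p = 0.00021). Its probe sets 1423726_at and 1438165_x_at gave 1.96 and 1.89 in resistant tumors and 3.47 and 3.46 in tumors against normal thymus. In resistant tumors minus tumors they gave -1.51 and -1.57, where 1441930_x_at gave -0.64, and none of these passed. In Rnd2, Brca1 and Vat1 alike, resistant tumor 2 was the highest and resistant tumor 3 the lowest of the resistant tumors.

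Brca1 was also 1 of 2 neighbours that fell in resistant tumors against tumors (log2 difference -1.56 ± 0.19, adjusted p = 0.0125), where 0.36% of all genes passed. The call was lost in 5 of 21 other settings, among them leaving out tumor 2 or tumor 3 (adjusted p up to 0.0909). Of the 3 further Brca1 probe sets, 1424630_a_at gave 1.30 in resistant tumors and 2.87 in tumors against normal thymus (adjusted p of 0.039 and 0.00105 over all probe sets). The probe set 1451417_at gave 0.94 and 3.02 (adjusted p of 0.117 and 0.000803), and 1427698_at gave 0.84 and 0.76 and passed in neither (adjusted p of 0.565 and 0.632). In resistant tumors minus tumors, 1424630_a_at gave -1.57, 1451417_at -2.08 and 1427698_at 0.09. None of them passed over all probe sets (limma adjusted p of 0.401, 0.181 and 0.99973), nor did the probe set used for Brca1 (0.0622). The other neighbour that fell was Pygl, the liver glycogen phosphorylase beside Trim9 (-1.70 ± 0.29, adjusted p = 0.047). It lost its call in 14 of 20 other settings, 8 of them the removal of 1 array (adjusted p up to 0.225). Around Rnd2, the next tested genes outward of Vat1 and Brca1, Ifi35 (-0.04 in resistant tumors and 0.50 in tumors) and Nbr1 (-0.18 and 0.04), did not pass against normal thymus. Farther out, Tmem106a rose by 0.82 in resistant tumors (adjusted p = 0.0083) and by 0.76 in tumors (adjusted p = 0.0117, and 0.0517 without normal thymus 3), and Rundc1 fell by 0.44 in resistant tumors (adjusted p = 0.0329, and up to 0.0888 on leaving out 1 array).

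Beside Igfbpl1 on chromosome 4 lies Aldh1b1, which encodes a mitochondrial aldehyde dehydrogenase. It read 1103, 1053 and 1013 in resistant tumors, 757, 849.8 and 671 in tumors and 51.7, 81.0 and 76.0 in normal thymus (log2 difference 3.95 ± 0.17, adjusted p = 5.61e-07, and 3.47 ± 0.17, adjusted p = 8.9e-07). All 3 resistant tumors were over all 3 tumors for Aldh1b1, as they nearly were for Igfbpl1, though the difference between the tumor groups did not pass (0.48 ± 0.17, adjusted p = 0.495). Shb, the next gene on that side, rose by 1.22 in resistant tumors and 0.90 in tumors (the call in tumors lost on leaving out certain single arrays, adjusted p up to 0.0792). On the far side of Igfbpl1, Ccdc180 did not pass (0.60 and 0.25), while Tdrd7, the next tested gene, rose by 0.73 in resistant tumors (adjusted p = 0.00331) and by 1.08 in tumors (adjusted p = 0.000356). Of the other 17 neighbours, 5 rose in at least 1 tumor group against normal thymus: Ppp1r26 beside Olfm1, Wdr4 beside Pde9a, Ntpcr by Kcnk1, Wdr61 beside Crabp1 (in resistant tumors) and Tmx1 beside Trim9 (in tumors). Adamdec1 by Stc1 and Slc37a1 beside Pde9a fell in both, and Pygl fell in resistant tumors. The calls of Wdr61, Tmx1, Slc37a1 and Pygl against normal thymus were lost on leaving out certain single arrays, with adjusted p up to 0.0881, 0.167, 0.0983 and 0.0607.

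**Figure D4:**
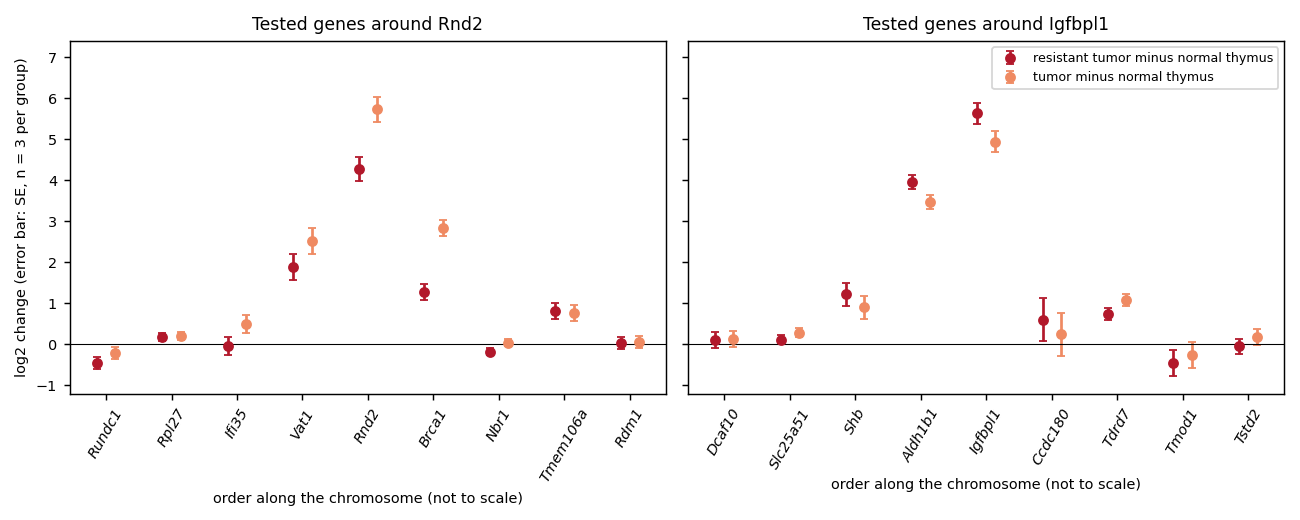
Log2 difference from normal thymus (points with SE, n = 3 arrays a group) of tested genes in their order along the chromosome around Rnd2 and Igfbpl1, in resistant tumors (red) and tumors (orange). Vat1 and Brca1 stand up beside Rnd2, and Aldh1b1 beside Igfbpl1, while the fitted difference of Igfbpl1 itself is set against dim normal thymus arrays and the genes farther out lie between -0.45 and 1.22.

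Most markers of the nervous system and the kidney, both tissues from which some of the 10 genes are known, were under the array medians, while limb and skin had no list of their own. Of 19 neural markers on the array, 13 were under the array medians on all 9 arrays, among them Sox2, Pax6, Dcx, Map2, Snap25 and Stmn2. Of the 4 that were tested, Ncam1 and Nes rose and Syt1 fell in both tumor groups against normal thymus, though the Syt1 call in resistant tumors was lost on leaving out certain single arrays (adjusted p up to 0.0783). Ncam1, an adhesion molecule of neurons and natural killer cells, read 18.4, 108 and 149 in resistant tumors, 141, 194 and 192 in tumors and 1.79, 13.6 and 6.74 in normal thymus. Nes, an intermediate filament of progenitors and growing vessels, read 61.2, 81.1 and 87.7 in resistant tumors, 83.2, 105 and 73.4 in tumors and 8.48, 7.46 and 10.5 in normal thymus. The summed level of the neural list was 308 to 386 in resistant tumors, 345 to 415 in tumors and 147 to 223 in normal thymus. Both tumor groups thus lay over normal thymus without overlap. These sums include Ncam1 and Nes and were not taken without them, so no rise of the list as a whole is read from them. The part of the neural list in the rise of the 10 genes was not tested.

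Of 10 kidney tubule markers, 7 were under the medians on all 9 arrays and none passed in either tumor group (0 of 3 tested). Of 14 pluripotency and germ line markers, 12 were under the medians on all 9 arrays, Pou5f1 and Nanog among them. Of 28 HOX genes, 20 were under the medians on all 9 arrays. Of the 5 tested HOX genes, Hoxa4 was at least 2.06-fold higher in resistant tumors (adjusted p = 0.00221) and at least 1.98-fold higher in tumors (adjusted p = 0.00235), and Hoxd8 at least 1.16-fold higher in resistant tumors (adjusted p = 0.0406). Of 8 tested glia and neural crest markers, Ngfr rose by 1.81 in resistant tumors and 2.41 in tumors, and Erbb3 was at least 2.42-fold lower in tumors (adjusted p = 0.0149). The Hoxd8 and Erbb3 calls were lost on leaving out certain single arrays (adjusted p up to 0.127 and 0.0576). The summed level of the kidney list was 63.3 to 202 in resistant tumors, 42.2 to 191 in tumors and 61.6 to 157 in normal thymus.

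Some markers of stroma, thymic epithelium and thymocytes changed in the same comparisons as the 10 genes. Over all genes, 23.1% rose and 20.2% fell in resistant tumors against normal thymus, and 23.3% rose and 19.1% fell in tumors. Of 14 fibroblast markers, 10 rose and 2 fell in resistant tumors and 7 rose and 1 fell in tumors, with Col1a1 higher by 3.74 and 3.90 and Fbln1 by 3.63 and 3.14 on the log2 scale, and with Thy1 lower in both groups and Dcn lower in resistant tumors. In resistant tumors the Fap and Pdgfrb rises (adjusted p up to 0.108 and 0.0529) and the Dcn fall (up to 0.107), and in both groups the Thy1 falls, were lost on leaving out certain single arrays. Their summed level was 7997 to 13381 in resistant tumors, 6573 to 10940.3 in tumors and 5412 to 6237 in normal thymus, and none was under the median on all arrays. As thymocytes express Thy1 as well, this sum is not one of fibroblasts alone. Of 12 endothelial markers, 6 rose and 1 fell in resistant tumors and 5 rose and 1 fell in tumors, Pecam1 being the one that fell (its call in resistant tumors lost on leaving out certain single arrays, adjusted p up to 0.144). In either direction, 58.3% of the endothelial markers were called in resistant tumors and 50% in tumors, beside 43.3% and 42.4% of all genes. Without resistant tumor 1, resistant tumor 3, normal thymus 2 or normal thymus 3, 3 rose in resistant tumors, and without tumor 3, 2 rose in tumors. Their sums were 692 to 1096 in resistant tumors, 661 to 924 in tumors and 534 to 546 in normal thymus. None of these markers passed between resistant tumors and tumors, and the part of stroma in the levels of the 10 genes was not tested.

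The epithelial list, which includes thymic epithelium, fell for 11 of 14 tested genes in each tumor group, while Cldn3 rose in resistant tumors. Its summed level was 549.8 to 725 in resistant tumors, 530.0 to 1041 in tumors and 8384 to 8839 in normal thymus, and Prss16, Psmb11 and Pax1 were below 30 on every tumor array. Of 16 T cell and thymocyte markers, 1 rose and 10 fell in resistant tumors and 1 rose and 9 fell in tumors, Ptcra (the pre-T receptor chain) being the one that rose. Their sum was 13670.2 to 16763 in resistant tumors, 15763 to 17283 in tumors and 23282 to 25194 in normal thymus, and Cd8b1 was at least 131-fold lower in resistant tumors and at least 156-fold lower in tumors. Over all genes, 23.1% rose and 20.2% fell in resistant tumors, and 23.3% rose and 19.1% fell in tumors. The part of the cell make-up in the levels of the 10 genes was not tested.

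Of 15 tested genes induced by low oxygen, a list that bears on Stc1 because stanniocalcin is itself induced by it, 7 rose and 1 fell in resistant tumors (Kdm3a, not called without normal thymus 2, adjusted p = 0.0516) and 10 rose and 0 fell in tumors (7 rose without tumor 2, tumor 3 or any 1 normal thymus array). Vegfa rose by 2.38 ± 0.18 and 2.28 ± 0.18, and Egln3 by 2.29 ± 0.22 and 2.19 ± 0.22, in resistant tumors and tumors. Over all genes, 23.1% rose and 20.2% fell in resistant tumors, and 23.3% rose and 19.1% fell in tumors. None of the list passed between resistant tumors and tumors, and the median difference there was -0.02, as over all genes. The part of low oxygen in the level of Stc1 was not tested.

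**Figure D5:**
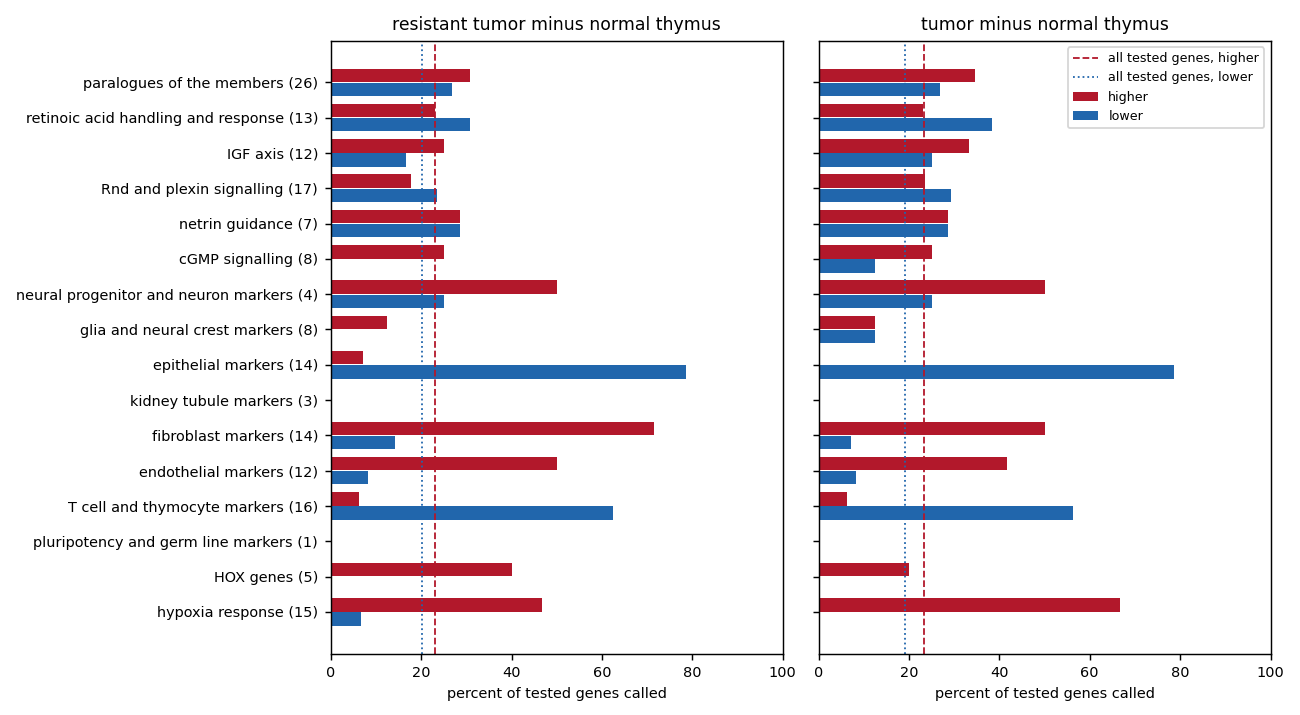
Percent of the tested genes of each list (number in brackets) called higher (red) or lower (blue) at an adjusted p under 0.05, for resistant tumor and tumor against normal thymus, with lines for all tested genes. The hypoxia and fibroblast lists lie over the line for higher genes and the epithelial and T cell lists over the line for lower genes in both panels.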

How the data were processed

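Total RNA (5 microgram per labelling) was extracted with Trizol and hybridised as biotinylated cRNA, per the labels' protocols. The deposited table holds linear intensity values from MAS5 (per the submitters' processing notes), with 1 value for each probe set on each array. The sources used here name no MAS5 version and no scaling target, and no detection calls were used. After trimming 2% from both ends, the mean was 100.03 on every array.

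The table held 45101 probe sets. The platform's gene table, which can be old, gave 1 symbol to 34945, several to 932 and did not list 9160, and 64 control rows stayed out of the tests. RefSeq names (GRCm38.p6) were matched for 18032 of 18193 genes. A floor of 1 was applied to the signals before log2. Probe sets that reached the array median on at least 3 of 9 arrays were kept (20917), and the brightest of a gene stood for it. Over the 19 probe sets of the 10 genes, 17 passed this filter. Levels of different probe sets were not compared.

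The 9 arrays entered 1 limma fit (version 3.58.1, R 4.3.3, eBayes with intensity trend, 6 residual degrees of freedom), with Benjamini-Hochberg adjustment over all 11671 genes and a threshold of 0.05. The fit was tested on simulated data. A group dim on all 3 arrays has only a bound. Spots carry no detection call, so the array median stood for the limit.

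The members, gene lists and tests were chosen with earlier results of these data known. Named genes are the 10 genes, up to 4 called genes of a list with the largest change, all called relatives, genes needed for counts of 5 or fewer, and the 2 nearest profiles per gene, passing over symbols ending in Rik or starting with Gm. The genes beside the 10 genes were added after the values were seen. Alternatives were other normalizations, offsets, filters, probe set rules, blocks and leaving out each array.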

Additional observations from a re-analysis of the deposited data

How the results depend on the processing

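All 10 genes stayed higher in both tumor groups than in normal thymus under every alternative run (21 for each gene, 20 for Trim9, which 1 filter removed), with the smallest differences when 50 was added to the signals. Between resistant tumors and tumors, Crabp1 turned to -0.11 with the array medians set equal, -0.22 with only the arrays with spike-ins, and to -0.37, -0.06 and -0.15 without resistant tumor 2, tumor 1 or tumor 3. Olfm1 turned to -0.018 with equal medians, -0.022 with only the arrays without spike-ins and -0.18 without resistant tumor 3. Leaving out 1 array gave -0.37 to 0.61 for Crabp1 and -0.18 to 0.75 for Olfm1. Sall3 stayed higher in resistant tumors (1.27 to 2.45) and was called in 8 of 21 settings. Rnd2 stayed lower (-2.07 to -0.99) and was called in 4. No other gene of the 10 changed direction in this comparison.

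Over all genes, 5049 were called in resistant tumors and 4943 in tumors against normal thymus, and 42 between the tumor groups. With equal medians these were 2034, 2287 and 18, with 878 higher and 1156 lower in resistant tumors against 2696 and 2353 otherwise, and the median of all genes moved to 0.24 in tumors and -0.26 between the tumor groups. With only the arrays without spike-ins they were 3069, 2117 and 1. Between the tumor groups the count was also 22 without a filter, 23 with a filter at the 75th percentile, 27 with mean probe sets, 143 with a term for the spike-in set and 553 with only the arrays with spike-ins. Leaving out 1 array gave 3818 to 5310 and 3878 to 5374 against normal thymus and 8 (without tumor 2) to 70 (without resistant tumor 3) between the tumor groups. It gave 10 without tumor 3, 20 without normal thymus 2 and 19 without normal thymus 3. In the fits that left a group with 1 array, that array is assumed to vary like the others.

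With the replicate number as a replicate block the counts were 6085, 5967 and 92, and among the 10 genes Sall3 (adjusted p = 0.0354) and Rnd2 (adjusted p = 0.0377) passed between the tumor groups. After the group means were taken off, 7 of 9 same-numbered pairs of arrays correlated at 0.37 to 0.65, all 3 of tumor and normal thymus among them, and resistant tumor 2 correlated at -0.34 with normal thymus 2 and -0.30 with tumor 2. All 7 of these pairs lie within 1 spike-in set, whereas resistant tumor 2 is without spike-in signal and normal thymus 2 and tumor 2 have it. The replicate number can therefore not be told apart from the spike-in set here, and the replicate block largely follows the same split. The numbers were not taken to pair the resistant tumors, and 6 of 9 arrays correlated best with their own number. The block ended no call of a list gene or neighbour. Of 212 such calls, 157 held without any 1 array and 55 were lost without at least 1. Genes near or under the array medians, such as Trim9, Olfm1 and Crabp1 in normal thymus, carry the least precise differences.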
